A study of Homo sapiens with 6 samples.

Results

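Pigment nuclei were taken as human nuclei that held RNA of at least 2 of 6 genes of melanin-making cells, PMEL, DCT, TRPM1, TYR, TYRP1 and MLANA. A human nucleus was a barcode with at least 500 human UMIs (unique molecular identifiers, each standing for 1 captured RNA molecule), at least 300 human genes and at least 90% of its UMIs on human features. The rule selected 1331 of 54030 human nuclei, or 2.46%. They numbered 70 and 38 in DATG, 331 and 386 in KO, and 259 and 247 in WT libraries. The nuclei came from teratomas, tumours of mixed tissues that pluripotent cells form, and were read by droplet sequencing of the 3′ ends of nuclear RNA. DATG libraries came from H1 cells, an established human embryonic stem cell line, with the ΔATG form of lncPRESS1, a long non-coding RNA gene. The labels do not describe the ΔATG change. KO libraries came from H1 cells with lncPRESS1 knocked out, and WT libraries from unaltered H1 cells. All 3 groups were injected with matrigel into the flank of NSG mice, an immunodeficient strain, and the tumours were frozen before nuclei were prepared. The labels name no clone, tumour or animal for any of the 2 libraries of a group, so the p-values below measure only the spread between these libraries, which may be technical.

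Vertebrate pigment cells have different embryonic sources. Melanocytes come from the neural crest and depend on PAX3, SOX10 and the receptor KIT, while the pigment epithelium behind the retina grows from the optic vesicle, where OTX2 and eye field regulators such as PAX6 are active. In both, the transcription factor MITF switches on the enzymes and structural proteins of the melanosome, the organelle in which melanin is made.

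Each library held 5542 to 12254 human nuclei with 24827688 to 43876948 human UMIs. Pairs of libraries shared 7 to 45 barcodes. Nuclei called as doublets made up 4.44% to 9.80% of the human nuclei of a library and were kept. LNCPRESS1, on chromosome 7 (101299578 to 101301346) of GRCh38, was too rare in pigment nuclei to check the labels. It had 0 UMIs there in both DATG and both KO libraries, against 3 in WT library 1 and 0 in WT library 2. Other human nuclei held 1 and 3 in DATG, 3 and 0 in KO, and 6 and 3 in WT libraries, so KO library 1 held as many as WT library 2.

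The 6 genes of the rule were unequally tied to the nuclei they selected. Because the rule used them, their values are a description with no test. TRPM1, a cation channel first known from melanocytes, had 94.5% of its 7199 UMIs in pigment nuclei. DCT, an enzyme of melanin synthesis, had 84.5% of 5052, and TYR, the rate-limiting enzyme tyrosinase, 75.1% of 7063. TYRP1, a relative of tyrosinase, had 63.5% of 921. PMEL, which forms the fibrils on which melanin is laid down, had 52.5% of 5197, and MLANA, a melanosome membrane protein, 29.3% of 857. Most MLANA RNA thus lay outside the selected nuclei. In GRCh38 coordinates of GENCODE 29, TRPM1 lies on chromosome 15 (31001061 to 31161273), DCT on chromosome 13 (94436808 to 94479682) and TYR on chromosome 11 (89177452 to 89295759). TYRP1 lies on chromosome 9 (12685439 to 12710290), PMEL on chromosome 12 (55954105 to 55973317) and MLANA on chromosome 9 (5890802 to 5910606).

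Promoters of several of these genes carry the M-box TCATGTG, an element to which MITF is known to bind. It was the only motif searched, on both strands, in 35116 human RefSeq promoters running from 250 bases before to 50 after the gene start. It occurred in 2.92% of them. Of the 36 genes of the rule and of the melanin and melanosome list, 28 had a promoter in the RefSeq table and 6 held the motif: DCT, TYR, TYRP1, SLC24A5, GPR143 and GPNMB. The stretches around it are shown for the 3 genes of the rule that held it and, as 1 example from outside the rule, for GPR143, a melanosome receptor. They are RefSeq sequences on GRCh38.p14, written 5′ to 3′ on the strand of the gene, with the M-box or its reverse complement in capitals. They lie at chr11:89177710-89177809 (plus strand) for TYR, chr9:12693220-12693319 (plus strand) for TYRP1, chr13:94479748-94479847 (minus strand) for DCT and chrX:9765848-9765947 (minus strand) for GPR143.
TYR: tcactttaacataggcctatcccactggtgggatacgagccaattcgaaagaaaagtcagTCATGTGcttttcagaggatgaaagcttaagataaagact
TYRP1: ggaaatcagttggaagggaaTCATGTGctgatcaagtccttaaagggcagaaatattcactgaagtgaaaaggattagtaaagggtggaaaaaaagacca
DCT: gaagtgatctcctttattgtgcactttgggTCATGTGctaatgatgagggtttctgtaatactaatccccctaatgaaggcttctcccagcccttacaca
GPR143: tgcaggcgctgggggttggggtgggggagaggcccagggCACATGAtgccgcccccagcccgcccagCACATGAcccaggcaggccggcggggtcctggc
Counted from the RefSeq gene starts, the M-box began 105 bases before TYR, 145 before TYRP1 and 135 before DCT. Its reverse complement began 61 and 33 bases before the RefSeq start of GPR143. The stretches shown for TYR and TYRP1 lie inside the GENCODE spans given above, so there the M-box is not upstream of the GENCODE start. DCT had a further match, a reverse complement 215 bases before its start, outside the stretch shown. Such a match is a description, not a binding site.

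The selected nuclei fell into unlike parts. Of 27 clusters of all human nuclei, 1 was made up mostly of pigment nuclei, which were 663 of its 755 nuclei (87.8%), and is called the pigment cluster here. TRPM1, DCT, TYR, PMEL, the transporter gene SLC38A11 and the non-coding OTX2-AS1 were among its leading genes. The other 668 pigment nuclei were spread over other clusters. Of these, 196 lay in a cluster led by neuronal genes such as the glycine transporter SLC6A5, in which 42.5% of nuclei were called as doublets. A further 91 lay in a cluster led by genes such as RHEX, TMEM132D and ZIC1, with 1.41% of nuclei called as doublets. Another 58 lay in a cluster led by intestinal genes such as SI and CDH17, with 14.1%.

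Members in the cluster were shallower in median than members outside it in all 6 libraries. Over all libraries the median was 4195 UMIs for members in the cluster, 9696 for members outside it and 2898 for all other human nuclei. Doublet calls covered 9.35% of members in the cluster, 21.6% of members outside it and 7.65% of other nuclei. By library they covered 66.7% and 0% in DATG, 8.55% and 12.4% in KO, and 7.14% and 7.33% in WT members of the cluster, against 28.1% and 0% in DATG, 24.0% and 17.3% in KO, and 9.77% and 39.2% in WT members outside it, so the order was turned in DATG library 1 and no doublet was called in DATG library 2. The cluster held 49.8% of the members but 26.3% of their UMIs, so a sum over all members is mostly RNA of nuclei outside the cluster. By library the members in the cluster numbered 6 and 28 in DATG, 152 and 201 in KO, and 126 and 150 in WT. DATG library 1 thus rests on 6 nuclei in every value for the cluster below, and 4 of the 6 (66.7%) were called as doublets.

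Rule genes lead the cluster, so how nuclei with more or fewer of them fell into it is given only as a description. Of the 543 nuclei with exactly 2 rule genes, just inside the rule, 12.0% were in the cluster, and of the 5476 with exactly 1, just outside it, 0.913% were. The share was 56.4% of 227 nuclei with 3 rule genes, 82.4% of 318 with 4, 86.0% of 207 with 5 and 83.3% of 36 with 6. Which pair was detected also differed. PMEL with TYR was the commonest pair among nuclei with exactly 2 rule genes, with 162 nuclei of which 4 lay in the cluster. DCT with TRPM1 was found in 38 nuclei, of which 28 lay in it.

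**Figure D1:**
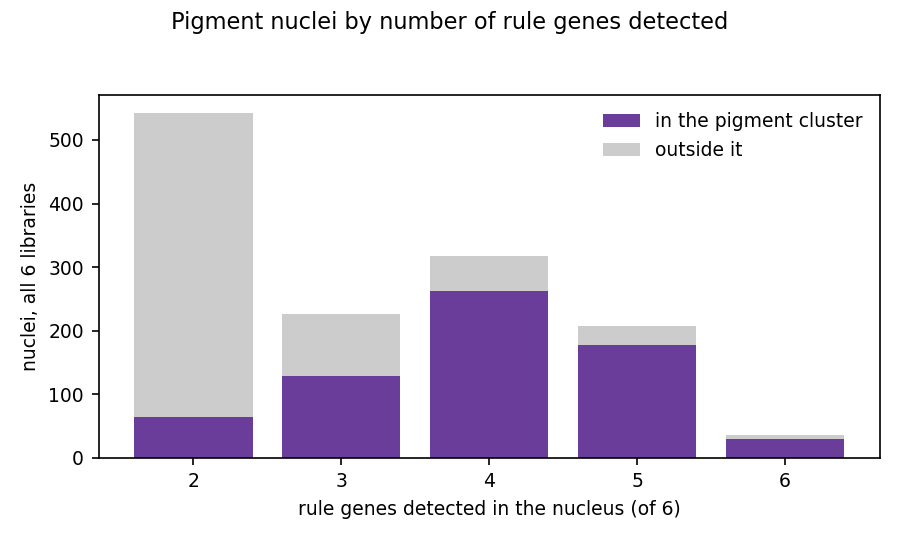
Pigment nuclei of all 6 libraries (y axis, number) by how many of the 6 rule genes had a UMI (x axis), split into nuclei inside (purple) and outside (grey) the pigment cluster. Of the 543 nuclei with exactly 2 rule genes 65 lay in the cluster, as did 262 of the 318 with 4.

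RNA of the rule genes was also met in nuclei that should lack it. At least 2 rule genes were found in 4.89% of nuclei with 3 or more gut epithelium markers, 4.75% of those with endothelial markers and 10.99% of those with skeletal muscle markers, at median depths of 5481, 6908 and 7491 UMIs. After each nucleus was thinned to 1000 UMIs these shares were 0.347%, 0.609% and 1.13%. Among nuclei with 3 or more Schwann and crest markers, 264 of 3394 held at least 2 rule genes at full depth, and 1.10% did after thinning. For choroid plexus markers it was 685 of 9131 nuclei at full depth and 3.03% after thinning, above the other thinned shares given so far. These 2 sets included 50 and 338 nuclei of the pigment cluster. In the pigment cluster, at a median of 3992 UMIs, the share was 87.8% at full depth and 68.8% after thinning. For a single nucleus outside the cluster, its own RNA of 2 rule genes and free RNA in the droplet cannot be told apart.

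The label names both melanocytes and pigment epithelium, and the genes outside the rule did not mark both alike. Summed members were set beside all other human nuclei of the same library, as CPM (the gene's share of all human UMIs, on the usual depth scale) and as log2 ratios with 5 CPM added to both. This is again a description with no test. Of the 30 melanin and melanosome genes outside the rule, 10 were higher in pigment nuclei in all 6 libraries, beside 6.58% of the 14937 genes at 5 CPM or more. Of 30 pigment epithelium genes 9 were, and of 12 optic-side genes 6. Of the 6 crest-side genes, SOX10, KIT, PAX3, FOXD3, CDH19 and ERBB3, 0 were higher in all 6 libraries. For so short a list 0 is near the share of all genes, so the count does not set these genes apart. FOXD3 was also at only 1.49 CPM over all human nuclei. Among members in the cluster the counts were 9, 11, 6 and 0 for the same 4 lists, beside 4.64% of all genes.

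The 9 of 30 melanin and melanosome genes that were higher in the cluster of every library included SLC45A2 and GPR143. SLC45A2, a melanosome transporter, was at 74.3 and 56.2 CPM in DATG, 62.7 and 71.6 CPM in KO, and 65.5 and 71.0 CPM in WT, against 2.07 to 5.31 CPM in other nuclei. GPR143 was at 149 and 80.3 CPM in DATG, 97.9 and 69.5 CPM in KO, and 92.5 and 83.1 CPM in WT, against 4.18 to 9.44 CPM in other nuclei. No library's cluster level overlapped the levels of other nuclei for either gene. Median log2 ratios over the 6 libraries were 3.27 for RAB38, a GTPase of melanosome trafficking, 3.31 for GPNMB, a relative of PMEL, 2.59 for SLC24A5, an ion exchanger, and 1.93 for OCA2, a melanosome channel protein. Others of the list did not stand above other nuclei. HPS6 and HPS5, of complexes that build lysosome-related organelles, had median log2 ratios of -0.23 and -0.15, TPCN2, an ion channel of melanosomes, -0.51, and SYTL2, which binds the GTPase of melanosome transport, -0.82.

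Among the regulators, MITF on chromosome 3 (69739435 to 69968337) was at 1188 and 722 CPM in DATG, 509.6 and 415 CPM in KO, and 537 and 647 CPM in WT members of the cluster, against 30.8 to 47.5 CPM in other nuclei. OTX2 on chromosome 14 (56799905 to 56810479) was at 259.9 and 385 CPM in DATG, 199 and 177 CPM in KO, and 212 and 232 CPM in WT, against 16.7 to 40.9 CPM in other nuclei. Both genes were higher in the cluster in all 6 libraries, without overlap. TFEC, a relative of MITF, was at 0 and 257 CPM in DATG, 200.5 and 227 CPM in KO, and 92.5 and 174 CPM in WT, where the 0 of DATG library 1 allows up to 111 CPM. The eye field genes PAX6, LHX2 and SIX3 had median log2 ratios of 1.95, 1.64 and 1.44.

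The crest-side regulators had no such pattern. PAX3 was at 557 and 0 CPM in DATG, 118 and 61.3 CPM in KO, and 38.5 and 25.5 CPM in WT members of the cluster, against 40.6 to 185 CPM in other nuclei. Only DATG library 1, with its 6 nuclei, was above its own other nuclei. SOX10 was at 37.1 and 0 CPM in DATG, 7.65 and 8.95 CPM in KO, and 12.8 and 8.04 CPM in WT, against 1.35 to 16.1 CPM, and KIT had a median log2 ratio of -0.37. Both DATG library 2 values of PAX3 and SOX10 were 0 over 28 nuclei, which allows up to 24.1 CPM.

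**Figure D2:**
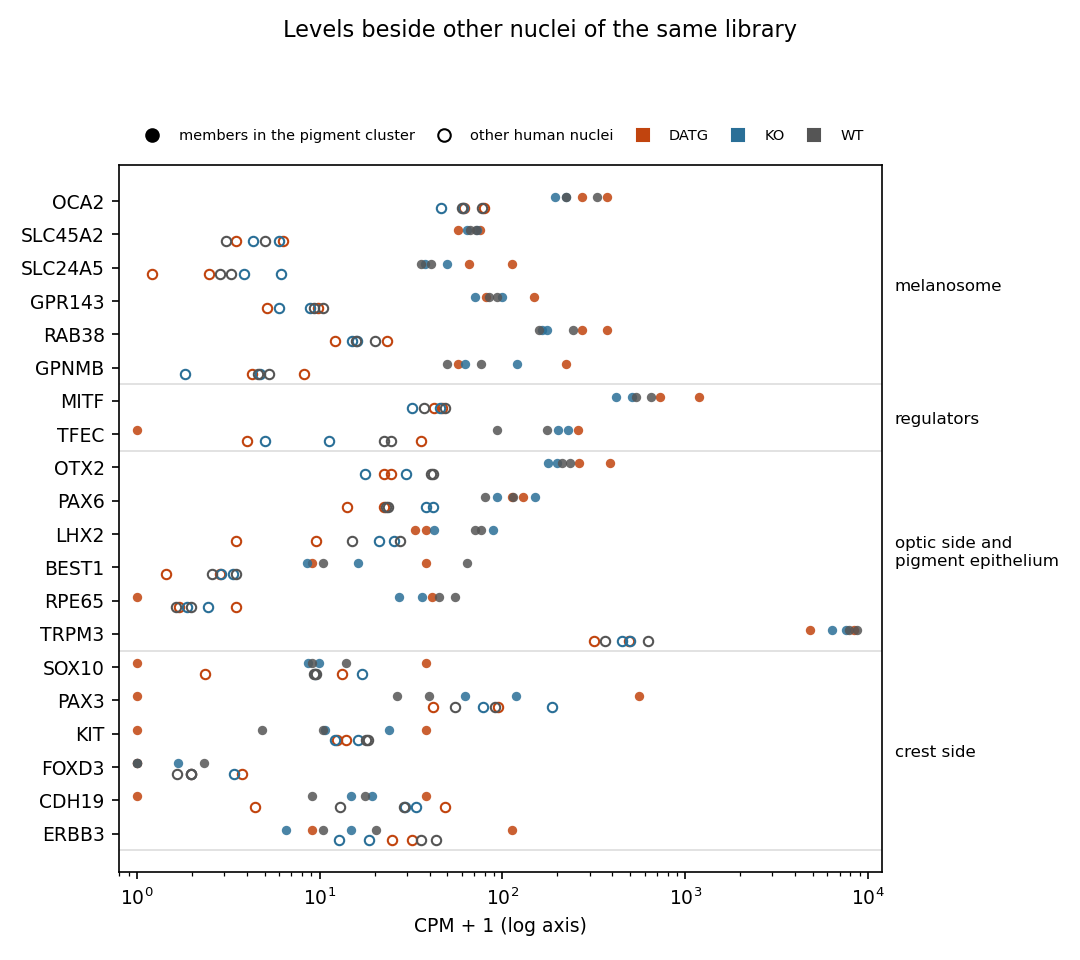
Level of genes outside the rule in members of the pigment cluster (filled points) and in all other human nuclei (open points) of each library, as CPM plus 1 on a log axis, with 1 colour per group. MITF, OTX2 and TRPM3 stand above other nuclei in every library, while the cluster and other nuclei overlap for SOX10, KIT and PAX3.

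Genes of the mature pigment epithelium were present at unequal levels. TRPM3 on chromosome 9 (70529063 to 71446904), a cation channel known from pigment epithelium and choroid plexus, was at 4789 and 8346 CPM in DATG, 7536 and 6387 CPM in KO, and 8727 and 7844 CPM in WT members of the cluster, against 315 to 622 CPM in other nuclei. RPE65, the retinoid isomerase of the visual cycle, was at 0 and 40.1 CPM in DATG, 26.0 and 35.1 CPM in KO, and 54.0 and 44.2 CPM in WT, against 0.632 to 2.49 CPM in other nuclei. It exceeded other nuclei in 5 of 6 libraries, the exception being the 0 in the 6 nuclei of DATG library 1. SERPINF1, a secreted factor of pigment epithelium, KCNJ13, its potassium channel, and BEST1, its anion channel, had median log2 ratios of 2.36, 1.52 and 1.36. LRAT and RLBP1, of the same retinoid cycle, were higher in 4 libraries each, with median log2 ratios of 0.17 and 1.24.

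Nuclei were also summed over the 6 libraries by their number of rule genes, again as a description. MITF stood at 40.4 CPM in nuclei with 0 rule genes and 44.2 with 1. With 2 to 6 rule genes it stood at 81.8, 154, 265, 375 and 320.2 CPM. SOX10 stayed between 9.15 and 14.3 CPM over the same classes. Among nuclei with exactly 2 rule genes, MITF was at 448 CPM inside the cluster and 66.4 CPM outside it.

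The 25 genes outside the rule with the largest median ratio in all members were led by SLC38A11, a putative amino acid transporter, at a log2 ratio of 3.83. OTX2-AS1, a non-coding RNA named for its place antisense to OTX2, followed at 2.78, TRPM3 at 2.53, ATP6V1C2, a subunit of the proton pump of acidic organelles, at 2.38, MITF at 2.26 and RAB38 at 1.87. The sources used here do not state whether counting used strand, so values of OTX2-AS1 are uncertain where it overlaps OTX2. HTR2C, a serotonin receptor of choroid plexus, was in this list at 1.37 but had a ratio of -1.58 in members of the cluster. It was at 971 and 64.4 CPM in DATG, 196 and 24.5 CPM in KO, and 512 and 89.0 CPM in WT pigment nuclei as a whole, and at 0 and 225 CPM in DATG, 6.12 and 15.8 CPM in KO, and 182 and 30.8 CPM in WT members of the cluster. The 12 choroid plexus markers summed to 1039.5 and 1709 CPM in DATG, 903 and 855 CPM in KO, and 1784 and 1219.8 CPM in WT members of the cluster, against 1506 and 670.2 CPM in DATG, 759 and 777 CPM in KO, and 1096 and 880.2 CPM in WT other nuclei. In 5 of the 6 libraries the sum was higher in the cluster, and in DATG library 1 it was lower. By gene, 2 of the 12 were higher in the cluster in all 6 libraries, with a median log2 ratio of -0.059 over the list. The list and the cluster also shared nuclei, with 338 nuclei of the cluster holding 3 or more of that list.

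Each nucleus was then placed by side, on the crest side if it held RNA of any of the 6 crest-side genes and of none of the 12 optic-side genes, and on the optic side if the reverse held. A side does not name a cell type, because these genes are also active elsewhere. PAX3, with PAX7, was among the leading genes of another cluster of 2809 nuclei, of which 18 were pigment nuclei. PAX6 was also on the list of neural progenitor markers, and OTX2 on that of choroid plexus. Of the 1331 members 89 were on the crest side, 649 on the optic side, 395 held both kinds and 198 held neither. The crest side made up 12.1% of sided members, 1.05% of those in the cluster and 46.8% of sided nuclei among all others. By library it made up 32.0% and 10.0% in DATG, 17.1% and 8.49% in KO, and 12.9% and 7.24% in WT members. The 2 DATG values rest on 25 and 30 sided nuclei, with exact Clopper-Pearson 95% intervals of 14.9% to 53.5% and 2.11% to 26.5%, which cover counting error only.

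**Figure D3:**
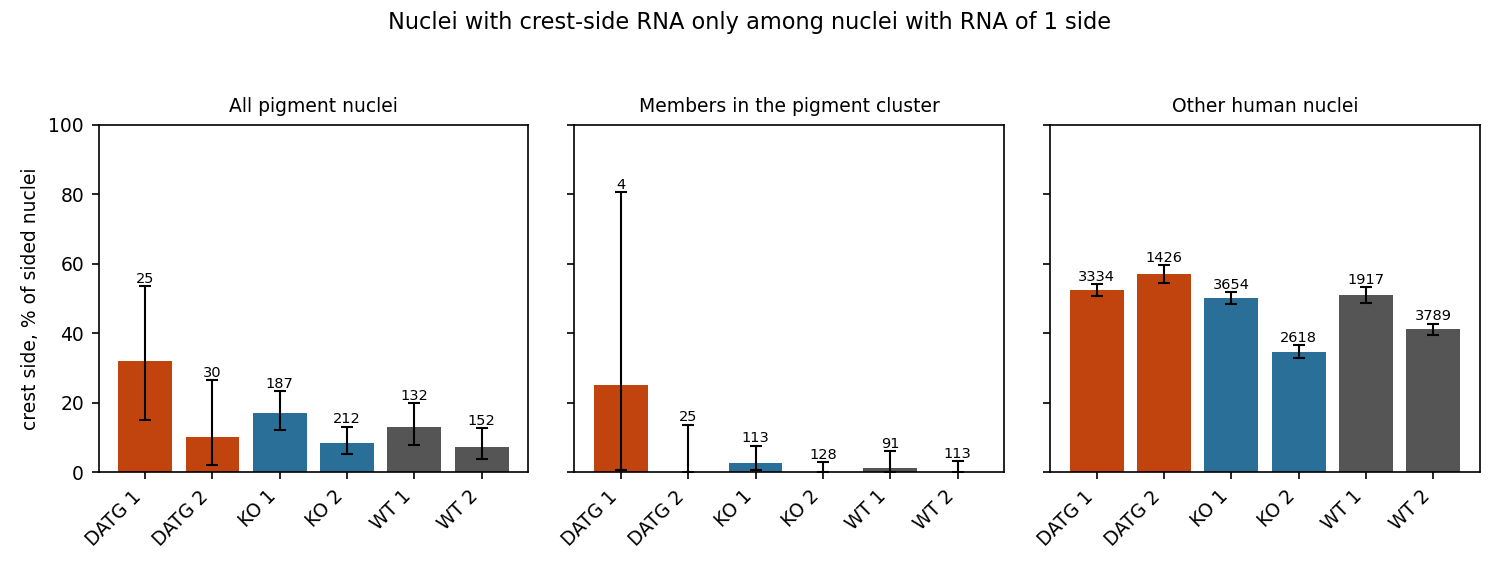
Share of crest-side nuclei among nuclei with RNA of 1 side only, in percent, in each library, with exact 95% intervals and the number of sided nuclei above each bar, for all pigment nuclei (left), members in the pigment cluster (middle) and other human nuclei (right). Other nuclei lie between 34.6% and 57.0%, above the pigment nuclei of the same library in all 6.

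The crest-side shares of the 3 groups overlapped. They averaged 21.0% ± 15.6 in DATG, 12.8% ± 6.10 in KO and 10.1% ± 3.99 in WT libraries (SD, n = 2 each), and every pair of groups gave p = 0.667 in an exact two-sided permutation test. With 2 libraries against 2 this test cannot go below 0.33. The differences of 10.94 (DATG minus WT) and 8.20 (DATG minus KO) percentage points became -0.058 and -2.80 without DATG library 1. That of 2.74 (KO minus WT) became -1.57 without KO library 1 and -0.077 without WT library 2.

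A small set in the pigment cluster went against the rest, and it was chosen after its values were seen. This set of 6 nuclei, 2 of DATG library 1 and 4 of KO library 1, was defined by at least 2 UMIs of PAX3 and at most 1 of TRPM3, whereas the other 749 nuclei of the cluster had a median of 32 TRPM3 UMIs. The set held 43 PAX3 UMIs, 18.6% of those in the cluster, with 7 of KIT, 4 of ERBB3 and 1 of SOX10. It also held 23 UMIs of MITF, 11 of MLANA, 26 of TYR and 0 of OTX2. Of these nuclei 5 were called as doublets, and the part of doublets in the set was not tested. The exception came from DATG library 1, with 8 UMIs of PAX3, 3 of ERBB3, 22 of TYR, 10 of TYRP1 and 0 of TRPM3. It held only 1 UMI of SOX10 and 0 of MITF.

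The share of pigment nuclei was lower in both DATG libraries than in any KO or WT library. It was 0.578% and 0.624% in DATG, 3.28% and 4.86% in KO, and 4.67% and 2.02% in WT libraries. The DATG values did not overlap those of either other group, while KO and WT overlapped. Exact 95% intervals were 0.451% to 0.730% and 0.442% to 0.855% in DATG, and the lowest bound in the other 4 libraries was 1.77%. The mean was 0.601% ± 0.0322 in DATG, 4.07% ± 1.12 in KO and 3.34% ± 1.88 in WT (SD, n = 2 each).

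As log2 ratios of these means, DATG over WT was -2.48 and DATG over KO -2.76, each with p = 0.33 in the exact two-sided permutation test, the smallest it can give. KO over WT was 0.28 (exact permutation p = 0.667). A fit of nuclei per library over 28 sets, the pigment nuclei and the clusters of the remaining nuclei, with edgeR's quasi-likelihood test gave adjusted p = 0.643 for DATG against WT, 0.367 for DATG against KO and 0.836 for KO against WT. None passed 0.05. After thinning to 1000 UMIs, with 475 to 1101 shallower nuclei left out per library, the share was 0.115% and 0.465% in DATG, 1.53% and 2.16% in KO, and 2.36% and 1.01% in WT libraries. The pigment cluster made up 0.0496% and 0.558% in DATG, 1.73% and 2.87% in KO, and 2.47% and 1.43% in WT human nuclei. In both measures DATG library 1 was the lowest of the 6 and DATG library 2 the next.

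**Figure D4:**
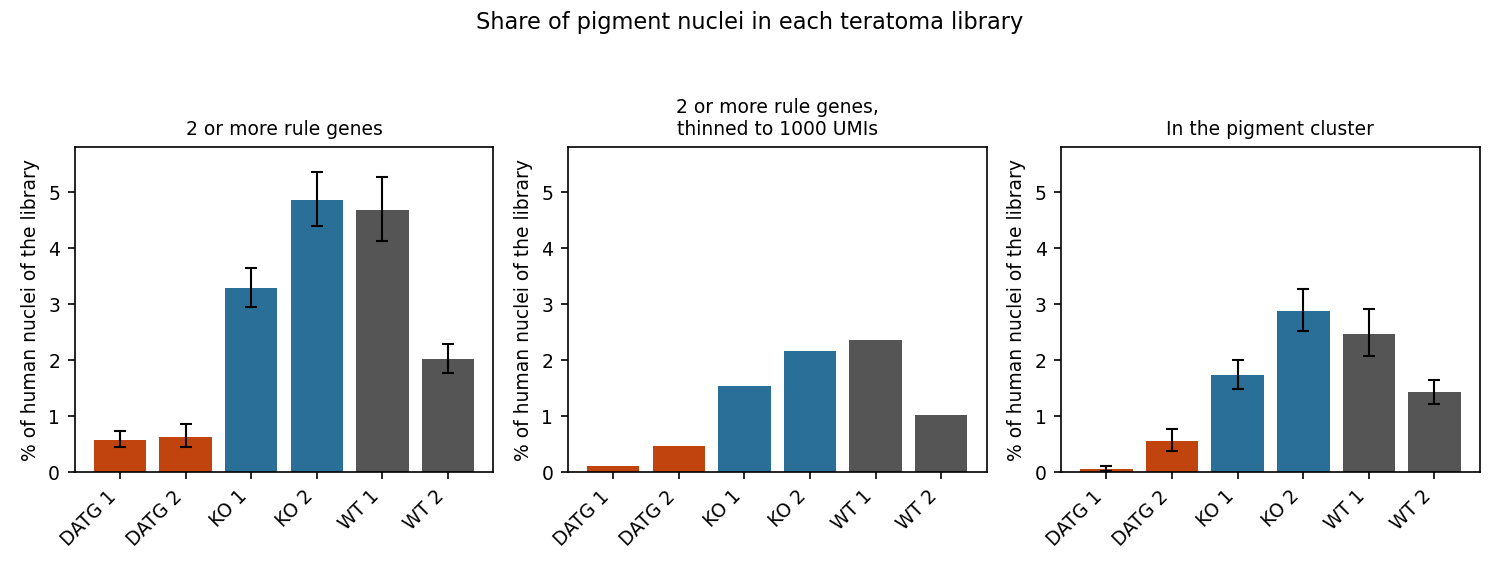
Share of human nuclei in each library, in percent, that were pigment nuclei at full depth (left), that met the rule after thinning to 1000 UMIs (middle) and that lay in the pigment cluster (right), with exact 95% intervals in the left and right panels. The DATG libraries, at 0.578% and 0.624% pigment nuclei, lie below the 4 KO and WT libraries.

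The DATG shares leaned on how mouse RNA was handled and on 1 WT library. When at least 99% of a nucleus's UMIs had to be human, the share in DATG library 2 was 1.71%, and the log2 ratio was -1.68 for DATG over WT and -1.88 for DATG over KO. Without WT library 1 the DATG over WT ratio was -1.75 and the KO over WT ratio 1.01. The KO over WT ratio turned to -0.029 without KO library 2 and -0.20 without WT library 2.

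Within pigment nuclei, no difference in a pigment gene between the groups passed the test. Counts were summed over the members of each library and 17073 genes were tested with edgeR's quasi-likelihood test and Benjamini-Hochberg adjustment. No gene passed an adjusted p of 0.05 in DATG against WT, DATG against KO or KO against WT (0.0% in each). At an unadjusted p under 0.05 there were 976, 1493 and 794 genes, and DESeq2 called 27, 103 and 21 in the same order (0.158%, 0.603%, 0.123%). The count depended on the DATG libraries, for without DATG library 1 edgeR called 522, 1349 and 129 genes, and without DATG library 2 32, 14 and 108.

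Of the 30 melanin and melanosome genes 27 were tested and 0 were called in any comparison, with median log2 fold changes of 0.033 in DATG against WT, 0.078 in DATG against KO and -0.083 in KO against WT. The medians of all tested genes were -0.027, -0.015 and -0.005. Eye field genes had medians of -0.67, -1.17 and 0.37 over 15 genes, again with 0 called. In members of the cluster the same list had medians of 0.22 in DATG against WT and -0.30 in DATG against KO, beside -0.24 and -0.23 for all genes. LHX2, an eye field regulator, was at 12.3 and 9.76 CPM in DATG, 40.0 and 45.5 CPM in KO, and 34.8 and 46.0 CPM in WT pigment nuclei on the TMM-scaled level, without overlap between DATG and the other groups. Its log2 fold change of -1.93 (SE 0.381) in DATG against KO did not pass in edgeR, with an adjusted p of 0.522. In members of the cluster it was -1.03 (edgeR adjusted p = 0.632). In other nuclei LHX2 was at 8.57 and 2.50 CPM in DATG, 24.5 and 20.2 CPM in KO, and 26.7 and 14.0 CPM in WT, again without overlap between DATG and the other groups.

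The 13 mitochondrially encoded genes all had log2 fold changes above 0 in DATG against WT, with a median of 2.41, and 0 were called by edgeR. Mitochondrial RNA, which is made outside the nucleus, was 0.335% and 0.462% in DATG, 0.188% and 0.0861% in KO, and 0.153% and 0.0399% in WT pigment nuclei, and 0.481% and 0.523% in DATG, 0.161% and 0.109% in KO, and 0.170% and 0.0710% in WT other nuclei. In both sets it was higher in the DATG libraries than in any KO or WT library, while KO and WT overlapped. In members of the cluster it was 0.390% and 0.182% in DATG, 0.210% and 0.0560% in KO, and 0.175% and 0.0357% in WT. There DATG library 2 lay below KO library 1. The part of mitochondrial RNA in the gene comparisons was not tested.

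The genes nearest to a call were mostly not pigment genes, and none of those named here passed in edgeR. In DATG against WT, AQP1, a water channel of choroid plexus and other epithelia, was at 61.6 and 39.0 CPM in DATG, 0.678 and 2.29 CPM in KO, and 4.20 and 3.50 CPM in WT pigment nuclei, with a log2 fold change of 3.69 and an adjusted p of 0.834. H19, an imprinted non-coding RNA, was at 0 and 0 CPM in DATG, 8.81 and 19.6 CPM in KO, and 66.3 and 58.3 CPM in WT, at least 22.1-fold lower in DATG than in WT when 3 counts over both DATG libraries are allowed. GATA4, a regulator of endoderm and heart, was at 0 and 4.88 CPM in DATG, 3.39 and 5.09 CPM in KO, and 62.1 and 44.7 CPM in WT, with a log2 fold change of -3.62 and an edgeR adjusted p of 0.689 in KO against WT. The 2 values of each group lay apart from those of the group compared for all 3 genes. In DESeq2 they did pass, with adjusted p of 5.74e-05 for AQP1 and 0.00814 for H19 in DATG against WT. For GATA4 in KO against WT the DESeq2 adjusted p was 3.26e-06. In other nuclei H19 was at 0.901 and 0.697 CPM in DATG and 86.1 and 131 CPM in WT. GATA4 was there at 9.15 and 5.96 CPM in KO and 81.4 and 75.9 CPM in WT, so both differed outside pigment nuclei too. In members of the cluster AQP1 was at 0 and 8.03 CPM in DATG and 6.42 and 2.68 CPM in WT. That 0, in DATG library 1, allows up to 111 CPM. GRM7, a glutamate receptor, and CNTNAP4, a neuronal adhesion protein, had log2 fold changes of 1.48 and 2.08 in DATG against WT over all members, which were -0.73 and -0.69 in members of the cluster. Over all members both passed in DESeq2, with adjusted p of 0.00814 and 0.00912.

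Restricting the sums to members in the pigment cluster left 11268 genes to test, an alternative added after seeing the data. In DATG against KO, 63 genes passed in edgeR (0.559%), 11 higher (0.0976%) and 52 lower (0.461%) in DATG. In DATG against WT 3 genes passed (0.0266%), all lower in DATG: DCC, LRRC4C and a gene the files give only as ENSG00000258776. In KO against WT edgeR called 0 (0.0%), with 614 at an unadjusted p under 0.05 and 0 by DESeq2. DATG against KO fell to 1 call without DATG library 2, which was not among the 63, and to 12 by DESeq2 (0.106%), of which 11 were. Without WT library 1 or 2 it was 131 or 130. DATG against WT gave 0 calls without DATG library 2, 19 without WT library 1, 6 without KO library 2 and 5 without DATG library 1. Without WT library 2 it gave 4, of which 0 were among the 3. Fits of only the 4 libraries compared gave 0 calls in DATG against WT and 3 in DATG against KO. KO against WT gave 0 to 33 calls when a library was left out.

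Among members of the cluster, DCC and LRRC4C passed in DATG against both WT and KO, and both were lower in DATG. DCC, a netrin receptor of growing axons, was at 111 and 72.2 CPM in DATG, 1024 and 944 CPM in KO, and 552 and 795 CPM in WT members of the cluster. Its log2 fold change was -3.20 in DATG against WT (SE 0.562, edgeR adjusted p = 0.0141) and -3.75 in DATG against KO. LRRC4C, a synaptic adhesion protein that binds netrin-G, was at 37.1 and 56.2 CPM in DATG, 447 and 405 CPM in KO, and 417 and 398 CPM in WT, with a log2 fold change of -3.10 in DATG against WT (edgeR adjusted p = 0.0141). For both genes the DATG libraries lay below the 4 others in the cluster, without overlap. These DATG levels rest on 3 and 9 UMIs for DCC and on 1 and 7 for LRRC4C. Over all pigment nuclei DCC was at 2171 and 52.9 CPM in DATG libraries. It was there at 1786 and 1404 CPM in KO and 817 and 826 CPM in WT, so DATG library 1 was the highest. LRRC4C was there at 633 and 554 CPM in DATG, 768 and 654 CPM in KO, and 831 and 684 CPM in WT. In DATG against WT neither gene passed without DATG library 2, without WT library 2 or in the fit of 4 libraries, and LRRC4C did not pass without called doublets. DCC and LRRC4C were picked for DATG against KO after their values were seen.

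PAX2, a regulator of the optic stalk, had 0 UMIs in both DATG libraries and was at 133 and 168 CPM in KO and 78.4 and 50.9 CPM in WT members of the cluster. PAX2 is not particular to the eye, and was also among the leading genes of another cluster of 799 nuclei, with SLC6A5 and PAX8. In members of the pigment cluster PAX2 was at least 7.94-fold lower in DATG than in KO when 3 counts over both DATG libraries are allowed, with an edgeR adjusted p of 0.00495. Against WT, chosen after its values were seen, PAX2 did not pass, with an edgeR adjusted p of 0.228. The other 7 lower genes that met the rule for named genes likewise passed in edgeR and had 0 UMIs in DATG. In DESeq2 neither PAX2 nor any of these 7 passed, with an adjusted p of 0.0565 for PAX2 and 0.0727 to 0.110 for the 7. GRIA4, a glutamate receptor subunit, was at least 6.88-fold lower than in KO, ST18, a neuronal transcription factor, 5.42-fold, SRRM4, a regulator of neuronal splicing, 5.20-fold, and STMN2, a protein of growing axons, 4.51-fold. The bound was 5.68-fold for RHEX, 4.99-fold for ZKSCAN7-AS1 and 4.08-fold for TMLHE-AS1. ST18 and RHEX were also among the leading genes of other clusters. Of the 13 eye field genes tested, beside 0.559% of all genes, 2 passed in DATG against KO, PAX2 and NR2F1, a nuclear receptor of eye and brain patterning. NR2F1 had a log2 fold change of -2.08 and an edgeR adjusted p of 0.0475, and the list had a median of -0.30 beside -0.23 for all genes.

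RUNX1, a transcription factor best known from blood formation, was higher in DATG members of the cluster, at 186 and 161 CPM in DATG, 13.8 and 27.5 CPM in KO, and 66.8 and 56.3 CPM in WT, with a log2 fold change of 2.74 in DATG against KO (SE 0.510, edgeR adjusted p = 0.00600). Both DATG values lay above both KO values. STXBP6, COL15A1, TMEM45A and FIRRE were higher as well, at log2 fold changes of 2.67, 2.64, 2.22 and 2.11. RUNX1 also passed in DESeq2 (adjusted p = 0.00286), but STXBP6, COL15A1, TMEM45A and FIRRE did not (DESeq2 adjusted p from 0.0850 to 0.259). Without DATG library 2, STXBP6 and FIRRE turned to -0.37 and -0.22.

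**Figure D5:**
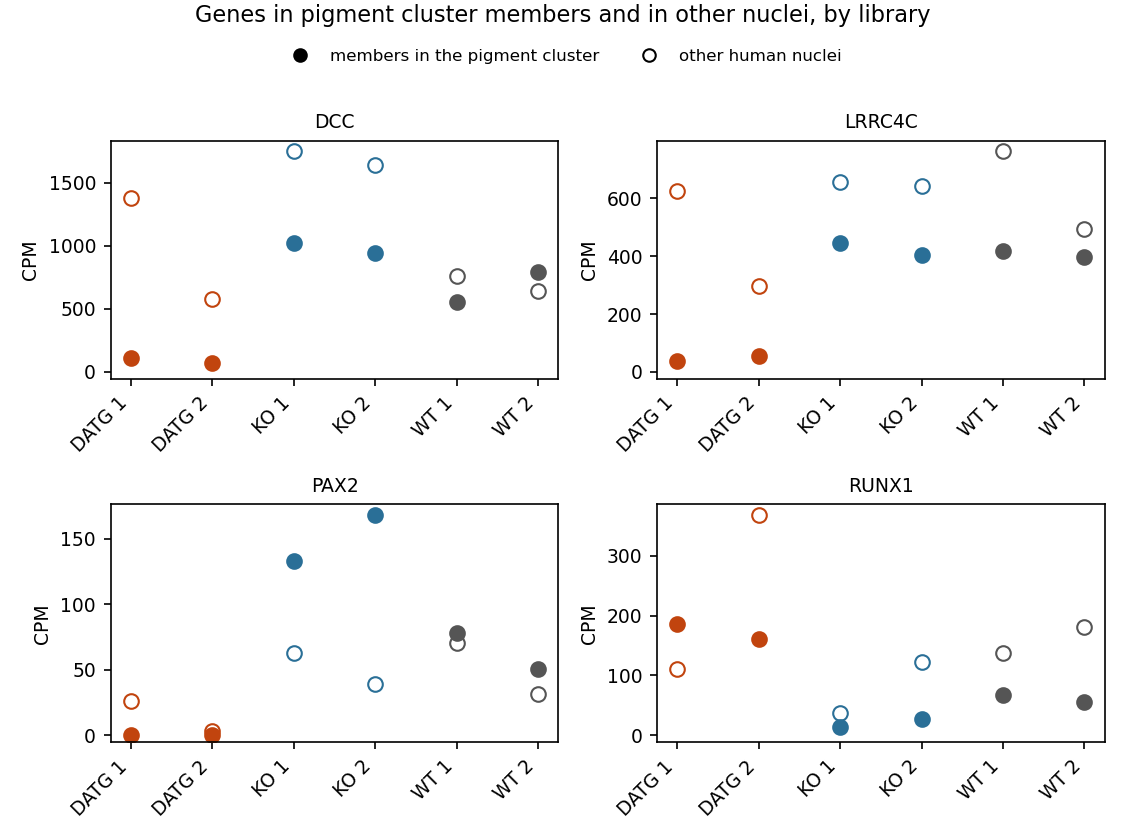
Levels (y axes, CPM) of 4 genes called within members of the pigment cluster, in each library (x axes), for members of the cluster (filled points) and other human nuclei (open points). Among cluster members, DCC, LRRC4C and PAX2 are lower in DATG than in KO and WT, and RUNX1 is higher in DATG than in KO.

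Other nuclei of the same libraries moved in part with these genes. DCC was at 1380.0 and 575 CPM in DATG, 1746 and 1637 CPM in KO, and 760.2 and 639 CPM in WT nuclei outside the rule, and RUNX1 at 110.4 and 369 CPM in DATG, 37.6 and 122 CPM in KO, and 138 and 181 CPM in WT. PAX2 was at 25.9 and 3.12 CPM in DATG, 63.1 and 39.4 CPM in KO, and 70.7 and 31.7 CPM in WT nuclei outside the rule, lower in both DATG libraries than in the 4 others. The 12 neuron markers summed to 1522 and 859 CPM in DATG, 2453 and 2866 CPM in KO, and 1134 and 1677 CPM in WT members of the cluster, against 3408 and 1148 CPM in DATG, 4031 and 3931 CPM in KO, and 1590.4 and 1913 CPM in WT other nuclei. The 12 mesenchyme markers summed to 2599 and 5136 CPM in DATG, 811 and 1489 CPM in KO, and 2027 and 3485 CPM in WT members of the cluster, against 6514 and 9576 CPM in DATG, 1544 and 3880.3 CPM in KO, and 4226 and 7621 CPM in WT other nuclei. For neuron markers, 0 of 10 tested in cluster members were above 0 in DATG against KO and 1, STMN2, was called (0 in DATG against WT), with a median log2 fold change of -1.66 beside -0.23 for all genes. For mesenchyme markers 9 of 11 were above 0 and 0 were called, with a median of 1.27. The part of RNA from other nuclei in the genes called within the cluster was not tested.

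Pigment genes in members of the cluster were called in no comparison. Of 26 melanin and melanosome genes tested 0 passed in edgeR, with medians of 0.27 in DATG against WT, 0.17 in DATG against KO and -0.007 in KO against WT. Of 26 pigment epithelium genes 0 passed either, with medians of -0.42, 0.065 and -0.57. At the depth of DATG library 1, 26936 UMIs over 6 nuclei, 1 UMI is 37.1 CPM, so smaller differences there were not detectable.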

How the data were processed

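Nuclear RNA was read in 6 libraries, 2 per group. The authors deposited raw UMI counts per gene and barcode, per the submitters' processing notes with Cell Ranger 8.0.1 on a joint human and mouse reference. Those notes and the file headers differ on the last digit of that version and on the mouse build, and mouse features served only for the human share of UMIs. Human nuclei were kept as described above, and their human UMIs numbered 24827688 to 43876948 per library, with a median of 2664 to 4064 per nucleus.

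Doublets were called by score, taking 0.8% per 1000 nuclei of a library, and were kept. All human nuclei were clustered with scanpy 1.11.5 (2000 variable genes, 30 principal components, 20 neighbours, Leiden resolution 1). The pigment cluster was the only cluster with over 20% pigment nuclei. Counts were summed per library and tested with edgeR 4.0.16 (quasi-likelihood, TMM scaling, filterByExpr, all 6 libraries in 1 fit, adjusted p under 0.05), with DESeq2 1.42.0 as an alternative. On simulated data for KO against WT with 17073 genes, 1 of 67 genes given a 2-fold change were called, as were 33 of 67 given 4-fold and 53 of 66 given 8-fold. Of 16873 genes left unchanged, 16 were called. The simulation had the depth of all members, so it does not cover the shallower sums of cluster members. Named genes were those past the threshold with the largest change, a mean of at least 20 CPM and no overlap between groups, up to 8 per direction, filled to 4 by the smallest p, plus the pigment lists and the 25 genes with the largest ratio beside other nuclei. The members and the gene lists were chosen with earlier results of these data known. Promoter sequences are from RefSeq, and gene coordinates from GENCODE 29. Intervals and floors of 3 counts cover counting error only.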

Additional observations from a re-analysis of the deposited data

How the results depend on the processing

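Over all pigment nuclei, where edgeR called 0 genes in each comparison, DESeq2 called 21 in KO against WT, 27 in DATG against WT and 103 in DATG against KO, and no filter on low counts gave 312, 241 and 572. Fitting only the 4 libraries compared gave 49 in KO against WT. Members in the pigment cluster gave 3 in DATG against WT and 63 in DATG against KO. Leaving out 1 library gave 0 to 129, 0 to 522 and 0 to 1349. Among cluster members, in KO against WT, DATG against WT and DATG against KO, a replicate block gave 55, 19 and 163 calls. Leaving out called doublets gave 47, 11 and 151, and no filter gave 75, 21 and 173. The 4-library fits gave 0 in DATG against WT and 3 in DATG against KO, and DESeq2 gave 12 in DATG against KO. Leaving out 1 library gave 0 to 33, 0 to 19 and 1 to 131. The cause of these changes was not tested. Crest-side differences turned, in KO against WT, to -0.64 points without called doublets, and ranged from -1.57 to 7.05 with 1 library left out. In DATG against WT they were -1.03 with 3 rule genes, -7.34 thinned and -0.55 in the cluster, and -0.058 to 21.9 with 1 library left out. In DATG against KO they were -5.47, -8.38 and -1.33, and -2.80 to 19.2. In those 3 settings DATG library 1 had under 10 sided nuclei and was left out. The log2 ratio of pigment nuclei shares with 1 library left out ran from -0.20 to 1.01 in KO over WT, where it turned to -0.029 without KO library 2, from -2.96 to -1.75 in DATG over WT and from -3.01 to -2.45 in DATG over KO. GRM7 and CNTNAP4 turned to -0.73 and -0.69 in cluster members, and with 1 library left out STXBP6 ran from -0.37 to 3.16 and FIRRE from -0.22 to 2.60.

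Same-numbered libraries deviated together in DATG and KO (r = 0.27 across genes) but not in KO and WT (r = -0.045) or DATG and WT (r = -0.10), and with 2 libraries per group they share only a number. With the replicate block edgeR called 0 genes over all pigment nuclei in each comparison, and the crossed pairing in DATG against WT, added after seeing the data, also gave 0. For the share of pigment nuclei the block gave edgeR adjusted p = 0.936 in KO against WT, 0.880 in DATG against WT and 0.364 in DATG against KO. Depth limits the cluster values of DATG library 1, where a count of 0 allows up to 111 CPM.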
